A study of Mus musculus with 6 samples.

Results

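Spred1, Spred2, Spry1, Spry2, Spry4, Dusp4, Dusp5 and Dusp6 are 8 genes whose products restrain the RAS-ERK kinase cascade, and they were followed here in fetal red cell precursors of embryos labelled as STAT5 knockout and as wild type. Their probe sets were selected by gene symbol: the annotation of the array pairs 23 of its 45037 probe sets with 1 of the 8 symbols alone, and 18193 genes were measured in all. Spred1 has 8 of the 23, Spred2 5, Spry4 4, Spry2 2, and Spry1, Dusp4, Dusp5 and Dusp6 have 1 each. No measured value enters that rule, but the 8 genes were chosen with results of these arrays known, the higher Spred2 signal in knockout pools among them, so their differences between genotypes are given as a description.

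The RNA came from Ter119-positive cells of mouse fetal liver at embryonic day 14.5, Ter119 being a surface antigen of maturing erythroid cells. The 2 groups were 3 pools labelled as STAT5 knockout (STAT5 KO) and 3 wild type pools, and each pool combined cells of 3 to 5 embryos of 1 genotype and was hybridised to 1 Affymetrix Mouse Genome 430 2.0 array. The sources used here do not give which STAT5 gene or allele was deleted, the strain or any treatment, and values of single embryos cannot be told apart within a pool. STAT5A and STAT5B are transcription factors that cytokine receptors such as the erythropoietin receptor activate through JAK2. A signal below means the deposited linear intensity of a probe set, and a difference means mean log2 signal of the knockout pools minus that of the wild type pools. Its standard error (SE) is from limma, fitted over all probe sets for member probe sets and over all genes for other genes. As a guide to background, 27 control probe sets that target Bacillus subtilis sequences had a 95th percentile of 162.5 over the 6 arrays, called the control level.

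The ERK cascade carries signals from receptor tyrosine kinases and cytokine receptors through RAS, RAF and MEK to the kinases ERK1 and ERK2, and in erythroid precursors it lies downstream of the receptor KIT and of the erythropoietin receptor. Many of its inhibitors are themselves products of genes that ERK activity induces, which makes them feedback regulators. SPRED proteins bring the RAS GTPase activator neurofibromin to the membrane and block activation of RAF, Sprouty proteins act between receptors and RAS or RAF, and the phosphatases DUSP4, DUSP5 and DUSP6 remove phosphate from the kinases themselves. DUSP6 acts in the cytoplasm, while DUSP4 and DUSP5 are nuclear.

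The promoters of Spred1 and Spred2 are shown because both genes gave higher signals in knockout pools. That of Dusp5 is shown because it alone of those searched held a motif, which was added to the search after the sequences were seen. The bases are the 250 before the annotated start, from RefSeq on GRCm38.p6, all on the + strand and written 5′ to 3′. They lie at chr2:117120821-117121070 for Spred1, chr11:19924192-19924441 for Spred2 and chr19:53528895-53529144 for Dusp5, and capitals mark motif matches.
Spred1: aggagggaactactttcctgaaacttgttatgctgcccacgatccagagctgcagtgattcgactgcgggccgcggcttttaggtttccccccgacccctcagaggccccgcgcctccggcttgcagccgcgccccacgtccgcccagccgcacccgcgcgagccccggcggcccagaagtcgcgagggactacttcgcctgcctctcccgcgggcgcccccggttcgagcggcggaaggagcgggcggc
Spred2: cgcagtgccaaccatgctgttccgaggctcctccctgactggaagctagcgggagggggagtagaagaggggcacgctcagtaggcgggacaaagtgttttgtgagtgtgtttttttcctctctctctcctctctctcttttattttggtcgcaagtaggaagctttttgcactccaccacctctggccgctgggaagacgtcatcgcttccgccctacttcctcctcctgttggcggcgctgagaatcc
Dusp5: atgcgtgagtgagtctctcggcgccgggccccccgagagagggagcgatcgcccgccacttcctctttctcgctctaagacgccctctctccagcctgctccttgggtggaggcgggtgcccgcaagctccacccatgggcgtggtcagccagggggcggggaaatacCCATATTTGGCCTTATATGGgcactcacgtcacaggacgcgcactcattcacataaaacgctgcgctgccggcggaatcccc
Windows were searched for 6 of the 8 genes, those 3 and Spry1, Spry2 and Dusp6. The motifs were the palindrome of STAT factors (TTCNNNGAA), a site of ETS factors (CCGGAAG), the cAMP response element (TGACGTCA) and the CArG box of serum response factor by its name, each on both strands. The 2 CArG boxes of Dusp5 begin 82 and 72 bases before the start and do not overlap. The other 5 windows held no match to these letters, and the STAT palindrome was in none of the 6. Among 32817 promoter windows of the same length, 7.01% held the STAT palindrome, 6.9% the ETS site, 1.55% the cAMP response element and 1.47% a CArG box. Since the CArG box was added with the sequences in view, its share among all windows does not measure how unusual the Dusp5 match is. A match is a match of letters only, and its absence from 250 bases says nothing about binding elsewhere.

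Stat5a and Stat5b signals were lower in the pools labelled knockout. The brighter Stat5a probe set (1421469_a_at) read 132, 124 and 156 in knockout pools, all under the control level, against 338, 418 and 366 in wild type pools. The first Stat5b probe set (1422102_a_at) read 205, 334 and 160 in knockout pools, against 576, 552 and 506 in wild type pools. The other Stat5b probe set (1422103_a_at) read 44.0, 138 and 148 in knockout pools, all under the control level, against 732, 487 and 496 in wild type pools. At these probe sets, and at the dimmer Stat5a one (1450259_a_at), all 3 knockout arrays read lower than any wild type array. The sources used here do not say whether the probes lie inside the deleted part. Median signals of the arrays ran between 175.6 and 215.8, and between 42.4% and 48.0% of probe sets on an array were at or under the control level.

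Spred2 gave higher signals in knockout pools at each of its probe sets that measured it above the control level on some array. Its brightest probe set, 1434403_at, read 1109, 916 and 1055 in knockout pools, against 454, 412 and 519 in wild type pools. The lowest knockout array thus lay well above the highest wild type array, and the mean log2 signal was 9.999 ± 0.14 in knockout pools and 8.84 ± 0.17 in wild type pools (SD, n = 3 each). The difference was 1.15 (SE 0.21), or 2.23-fold. A second probe set, 1436892_at, read 239, 248 and 341 in knockout pools, against 117, 132 and 130 in wild type pools. All wild type arrays were under the control level there, so knockout pools were at least 1.68-fold higher. The third, 1441415_at, read 420, 617 and 456 in knockout pools, against 179, 373 and 280 in wild type pools, again without overlap, with a difference of 0.89 (SE 0.34). The remaining pair lay under the control level on all 6 arrays and gives no level: 1441802_at differed by 0.83 (SE 0.75) and 1423001_at by -0.19 (SE 0.32).

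Spred1, its close relative, was also higher in knockout pools at most probe sets, though the size depended on the probe set. At 1423160_at the signals were 662, 526 and 721 in knockout pools, against 245, 287 and 182 in wild type pools. The groups were far apart, with a mean log2 signal of 9.30 ± 0.24 in knockout pools and 7.87 ± 0.33 in wild type pools (SD, n = 3 each) and a difference of 1.43 (SE 0.27), or 2.70-fold. The neighbouring probe set 1423161_s_at read 675, 583 and 776 in knockout pools, against 320, 468 and 308 in wild type pools, a difference of 0.91 (SE 0.26) without overlap. At 1452911_at the knockout pools read 193, 240 and 238, against 106, 109 and 86.4 in wild type pools. Wild type was under the control level on each array, which makes knockout pools at least 1.37-fold higher. The probe set 1460116_s_at read 241, 201 and 248 in knockout pools, against 135, 141 and 35.6 in wild type pools, at least 1.41-fold higher in knockout pools by the same reckoning.

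At the other Spred1 probe sets the genotypes overlapped. The probe set with the highest mean signal, 1443652_x_at, read 608, 840 and 735 in knockout pools, against 637, 665 and 434 in wild type pools. Its difference of 0.34 (SE 0.27) was 0.15 without wild type replicate 3, and the ending _x_at marks a set some of whose probes may bind other transcripts. For 1423162_s_at the single high wild type array, replicate 2, set the overlap: signals were 378, 219 and 332 in knockout pools, against 146, 354 and 98.9 in wild type pools. The difference there was 0.81 (SE 0.52), and it lay between 0.41 (without wild type replicate 3) and 1.33 (without wild type replicate 2) when single arrays were left out. The remaining sets were dim: 1428777_at read 180, 123 and 204 in knockout pools, against 110, 65.6 and 136 in wild type pools, while 1445228_at stayed between 4.28 and 36.9 on all 6 arrays, far under the control level.

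The 8 Spred1 probe sets are not 8 independent measurements. They were designed on 4 sequences: 1423160_at, 1423161_s_at and 1423162_s_at share 1, 1428777_at and 1452911_at share another, 1443652_x_at and 1460116_s_at share the next, and 1445228_at has its own. The 5 Spred2 probe sets have 5 different sequences.

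**Figure D1:**
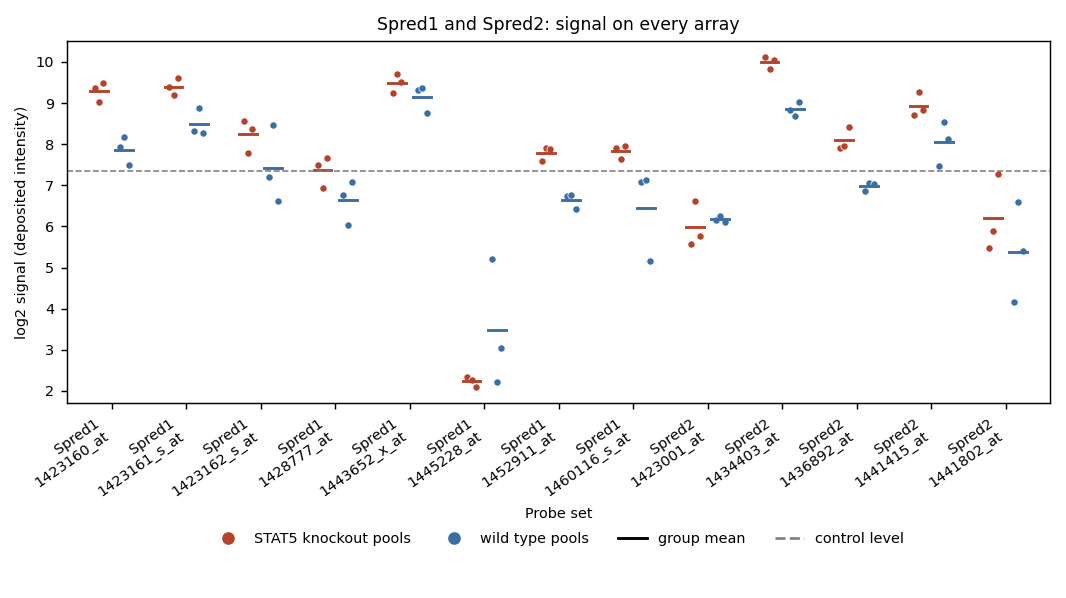
Log2 signal (vertical axis) of each Spred1 and Spred2 probe set (horizontal axis) on the 3 STAT5 knockout arrays and the 3 wild type arrays, with short lines at the group means and a dashed line at the control level, a signal of 162.5. Knockout points lie above all wild type points at 4 Spred1 and 3 Spred2 probe sets, while Spred1 1443652_x_at overlaps.

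The Sprouty genes did not share this pattern. Spry1, whose single probe set 1415874_at read 565, 577 and 559 in knockout pools, against 782, 712 and 545 in wild type pools, overlapped between genotypes. Its difference was -0.25 (SE 0.22), with knockout pools close together and wild type replicate 3 at their level. It was -0.40 without that array, -0.14 when wild type replicate 1 was left out and -0.13 after median centring of the arrays. Spry2 was the one Sprouty gene above the control level with separate groups: 1421656_at read 176, 220 and 227 in knockout pools, against 281, 350 and 282 in wild type pools. The mean log2 signal was 7.69 ± 0.20 in knockout pools and 8.24 ± 0.18 in wild type pools (SD, n = 3 each), a difference of -0.55 (SE 0.22), or 1.47-fold higher in wild type. The other Spry2 probe set, 1436584_at, read 191, 193 and 196 in knockout pools, against 214, 148 and 172 in wild type pools, with overlap. Its difference was 0.14 (SE 0.22), and 0.01 without wild type replicate 2. The lower Spry2 signal in knockout pools therefore rests on 1421656_at alone.

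Spry4, an inhibitor that acts on RAS activation in several tissues, was measured above the control level by 1 of its 4 probe sets. That set, 1440867_at, read 255, 489 and 506 in knockout pools, against 449, 373 and 302 in wild type pools. The groups overlapped fully, with a difference of 0.10 (SE 0.35) that turned negative when knockout replicate 2 (-0.04), knockout replicate 3 (-0.07) or wild type replicate 3 (-0.04) was left out. The other sets lay under the control level on every array. One of them, 1445669_at, nonetheless read 78.1, 92.7 and 90.7 in knockout pools, against 27.6, 17.2 and 34.0 in wild type pools, a difference of 1.78 (SE 0.31) between values that have no level above background and so no fold. The other pair, 1422020_at and 1422021_at, differed by -0.51 (SE 0.37) and -0.66 (SE 0.44).

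Of the phosphatase genes only Dusp6 was measurable. Its probe set 1415834_at read 312, 281 and 631 in knockout pools, against 221, 437 and 322 in wild type pools. The groups overlapped, and knockout replicate 3 alone made the knockout mean the higher: the difference was 0.28 (SE 0.42), and -0.09 without that pool. Dusp4 (1428834_at) read 21.4, 25.8 and 105 in knockout pools, against 13.3, 8.66 and 61.0 in wild type pools. Dusp5 (1437199_at) read 84.6, 66.8 and 107 in knockout pools, against 109, 25.6 and 27.0 in wild type pools. Both genes were under the control level on all 6 arrays and overlapped between genotypes, so no fold is given, and 1 probe set each cannot show that the transcripts are absent.

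**Figure D2:**
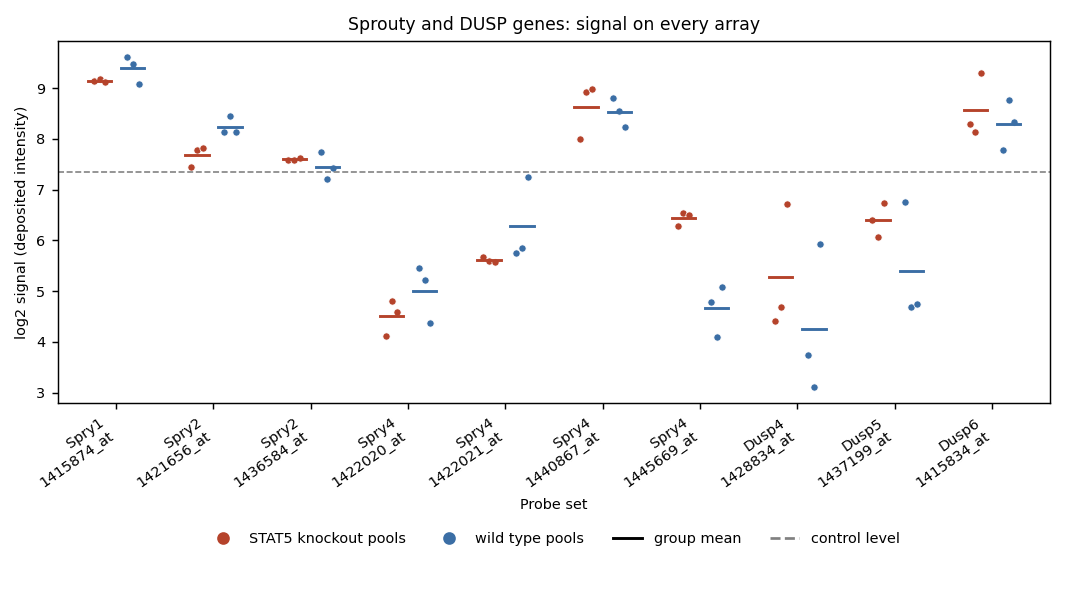
Log2 signal (vertical axis) of each Sprouty and DUSP probe set (horizontal axis) on the 3 STAT5 knockout and the 3 wild type arrays, with short lines at the group means and a dashed line at the control level of 162.5. Spry1, Spry2, one Spry4 probe set and Dusp6 lie above the line on all or nearly all arrays, and Dusp4, Dusp5 and the other 3 Spry4 probe sets lie below it.

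Over the whole family, knockout arrays lay above all wild type arrays at 8 of the 23 probe sets and below them at 2. Among all 45037 probe sets the shares were 6.84% above and 8.95% below. By gene family the higher ones were 7 of 13 SPRED probe sets and 1 of 7 Sprouty probe sets, the dim Spry4 set 1445669_at, and the lower ones were 2 Sprouty sets, Spry2 1421656_at and the dim Spry4 1422021_at. None of the 3 DUSP probe sets separated the genotypes. The submitters selected genes by the p of their test, below 0.05 with no adjustment, together with more than 1.5-fold change, and 6 of the 23 probe sets met this criterion upward (Spred1 1423160_at, 1423161_s_at and 1452911_at, Spred2 1434403_at and 1436892_at, and Spry4 1445669_at) and 0 downward. Among all probe sets 2.14% met it upward (965) and 3.05% downward (1372), a split that turned to 1360 upward and 968 downward after median centring of the arrays, where 7 members met it upward. Since the genes were picked with the Spred2 result in view, these counts describe them and are not independent evidence.

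No member probe set passed an adjusted p of 0.05. Limma with no mean-variance trend called 0 of 45037 probe sets (0%), while 3606 had an unadjusted p under 0.05, 8 of the members among them. The submitters' test likewise left 0 after Benjamini-Hochberg adjustment, with 3907 unadjusted. With the trend limma called 0.0755% of all probe sets upward and 0.0799% downward. The nearest members were Spred2 1434403_at (adjusted p = 0.0555 with the trend and 0.34 without) and Spred1 1423160_at (0.0783 and 0.343, limma). With 1 probe set per gene, the brightest, limma called 0.044% of 18193 genes without the trend, none of them a member. With the trend it called 0.242% higher and 0.198% lower, and of the 8 members Spred2 alone was called (adjusted p = 0.0314, limma).

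The Spred2 call changed with the choice of test and when arrays were left out. A fit without 1 array has less power for every gene, so a call lost there does not show reliance on that array. Without the trend, the count of genes called by limma went from 8 to 0 in each such fit. With the trend it was kept without wild type replicate 3 (adjusted p = 0.0361, limma) and ended without any other array, the adjusted p then lying between 0.0837 and 0.157. It also ended after median centring of the arrays (0.0636) and when its 5 probe sets were averaged, the dim ones included (0.443, difference 0.76). The difference at 1434403_at stayed between 1.08 and 1.24 whichever array was left out. For Spred1 the brightest probe set stood for the gene, the _x_at set, and the gene value was 0.34 (adjusted p = 0.613 with the trend). With _x_at, _s_at and _a_at sets left out, 1423160_at stood for it instead, with a difference of 1.43 (adjusted p = 0.0629 with the trend, limma).

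**Figure D3:**
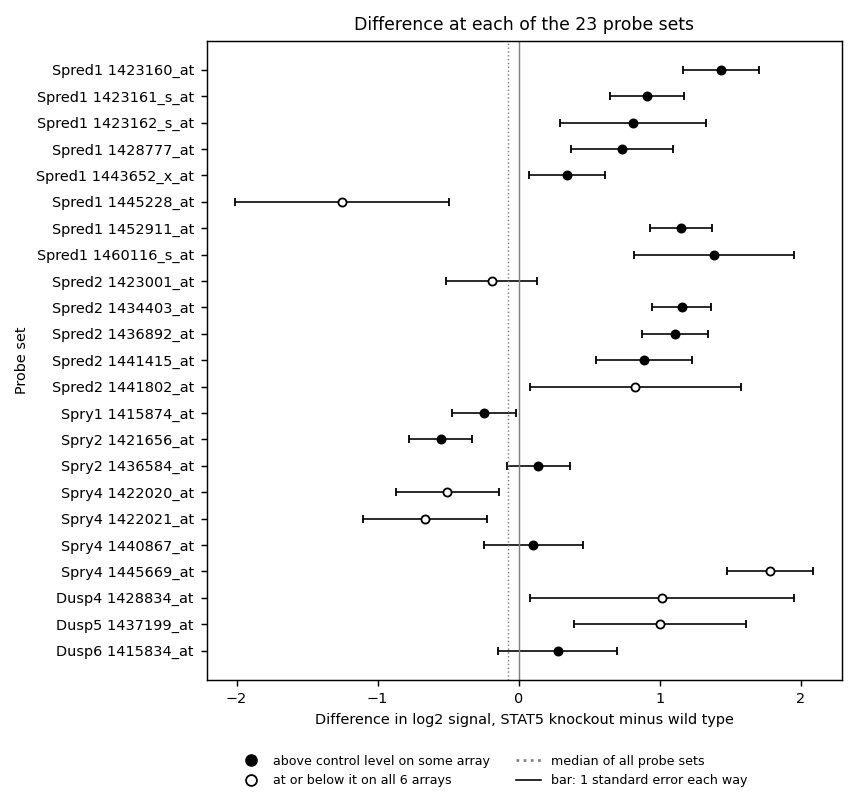
Difference in log2 signal, STAT5 knockout minus wild type (horizontal axis), at each of the 23 probe sets (vertical axis), with bars of 1 SE each way from limma; open circles mark probe sets at or under the control level on all 6 arrays, and the dotted line is the median of all probe sets, -0.07. Of the 13 SPRED probe sets 11 lie right of 0, the Sprouty sets lie on both sides and the Dusp6 bar spans 0.

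Related genes outside these 8 were read by 1 probe set each, the brightest. By that measure 1 of the 8 members lay above wild type without overlap, Spred2, and 1 below, Spry2. Of the 9 related genes measured (Spred3, Spry3 and 7 further MAP kinase phosphatases) none was called (limma, with and without the trend). None had an unadjusted p under 0.05 without the trend (limma) and none separated the genotypes. Among all genes 8.9% had such a p, and 7.02% lay without overlap above and 9.85% below wild type. A list of 9 genes is too short to tell none from these shares. The median difference of the related genes was 0.20, beside -0.08 for all genes. It lay between -0.03 (without wild type replicate 2) and 0.19 when single arrays were left out, and at 0.07 when a gene's probe sets were averaged. Dusp16, a phosphatase that prefers the stress kinases JNK and p38, differed by 0.45 (SE 0.36), and Dusp7, a cytoplasmic ERK phosphatase, by 0.28 (SE 0.24). Spry3, like Spred3, was under the control level on every array.

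Within the cascade that these proteins restrain, 14 genes were measured, 7 above and 7 below 0 with a median of -0.05, and none was called by limma with or without the trend. Of the 14, 2 had an unadjusted p under 0.05, beside 8.9% of all genes. Map2k2, which encodes the ERK kinase MEK2, read 1542, 2515 and 1872 in knockout pools, against 3260, 3098 and 2806 in wild type pools. Araf, a RAF family kinase, read 1059, 1134 and 1039 in knockout pools, against 1474, 1593 and 1339 in wild type pools. Both lay below wild type without overlap (9.85% of all genes did), by -0.66 (SE 0.23) and -0.44 (SE 0.17), and Nras, a RAS GTPase named after its value was seen, lay above it by 0.19 (SE 0.17). The adaptor gene Shc1 differed by -0.32 (SE 0.23). The median changed sign with the scaling, to 0.07 after median centring, where that of all genes was 0.03, and was -0.12 without wild type replicate 3.

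Other inhibitors of RAS and ERK numbered 15 with a median of -0.09 (0.03 after median centring and 0.08 without wild type replicate 1), and none was called with or without the trend. Of the 15, 2 had an unadjusted p under 0.05, beside 8.9% of all genes. Cbl, a ubiquitin ligase that removes activated receptors, read 1605, 1613 and 1638 in knockout pools, against 704, 1081 and 1074 in wild type pools, a difference of 0.79 (SE 0.23) without overlap. Rasa2, a RAS GTPase activator, read 140, 170 and 154 in knockout pools, against 222, 202 and 226 in wild type pools, a difference of -0.49 (SE 0.17) without overlap. Errfi1, an inhibitor of epidermal growth factor receptors, differed by -0.55 (SE 0.35) with overlap. Nf1, which encodes the neurofibromin that SPRED proteins recruit and which was named for that reason, differed by -0.23 (SE 0.25).

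Transcripts that ERK activity is known to induce were set beside these regulators. Of 17 measured, 11 were above 0, 4 lay above wild type without overlap (Etv5, Fos, Myc and Ier2) and none below, beside 7.02% above and 9.85% below among all genes. The median was 0.30, but 0.09 without wild type replicate 3 and 0.17 without knockout replicate 1. None was called with or without the trend, and 4 of the 17 had an unadjusted p under 0.05, beside 8.9% of all genes (limma). Myc, a transcription factor of growing cells, read 1218, 989 and 1003 in knockout pools, against 637, 428 and 447 in wild type pools, a difference of 1.10 (SE 0.23). Etv5, an ETS factor gene often induced beside Spry and Dusp6, read 568, 479 and 675 in knockout pools, against 255, 423 and 302 in wild type pools, a difference of 0.83 (SE 0.26). The immediate early gene Ier2 differed by 1.11 (SE 0.30). Of Spry2, Spry4 and Dusp6, which belong to the same response in many cell types, no probe set above the control level lay above wild type without overlap.

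Several of these transcripts also respond to tissue handling. Of 12 handling-induced genes, which include Fos, Junb, Egr1 and Ier2, 11 were above 0, 5 lay above wild type without overlap (7.02% of all genes did), and the median was 0.85. Hspa1a, a heat shock gene, was called with the trend (adjusted p = 0.0488, limma), with signals of 842, 1134 and 2841 in knockout pools, against 312, 215 and 353 in wild type pools. Hspa1b, its close copy, differed by 2.16 (SE 0.52). The summed signal of the list ran from 19769.6 to 32569.8 in knockout pools and from 14612.6 to 18919.4 in wild type pools, without overlap, and its part in the differences of the ERK-induced transcripts and of Spred1 and Spred2 was not tested.

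Effectors and upstream receptors gave no call with or without the trend. The 7 measured effectors of ERK had a median of 0.10 (0.06 without wild type replicate 2, 0.17 without knockout replicate 1, 0.22 after median centring and -0.22 when a gene's probe sets were averaged), with the translation kinase gene Mknk2 at 0.27 (SE 0.21), the transcription factor genes Srf at 0.34 (SE 0.34) and Elk1 at -0.23 (SE 0.28), and 0 with an unadjusted p under 0.05. The 15 receptor genes and their partners had a median of -0.30, which was -0.04 without wild type replicate 2 and -0.17 after quantile normalization. Of the 15, 2 lay without overlap above and 2 below wild type, beside 7.02% and 9.85% of all genes, and 2 had an unadjusted p under 0.05, beside 8.9%. Kit, the stem cell factor receptor gene, read 1148, 782 and 569 in knockout pools, against 526, 415 and 209 in wild type pools, a difference of 1.16 (SE 0.43). Irs2, an adaptor of insulin and cytokine receptors, read 213, 120 and 195 in knockout pools, against 262, 513 and 338 in wild type pools, a difference of -1.06 (SE 0.35). Flt3, a receptor of early progenitors, was under the control level on all knockout arrays and on wild type replicate 1.

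**Figure D4:**
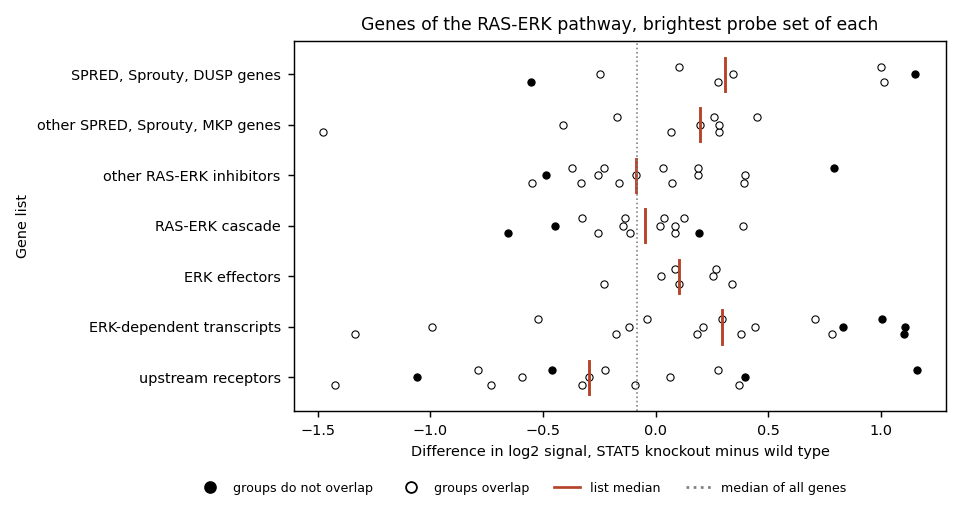
Difference in log2 signal, STAT5 knockout minus wild type (horizontal axis), for each measured gene of 7 lists of the RAS-ERK pathway (vertical axis), 1 brightest probe set per gene; filled points have groups that do not overlap, red lines are list medians and the dotted line is the median of all genes, -0.08. Spred2 is the rightmost point of its list, and the 4 filled points among ERK-dependent transcripts all lie right of 0.

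In bulk RNA of sorted pools, fewer cells of a type and less RNA per cell cannot be told apart, so the markers of other cells were measured beside these genes. Erythroid markers were bright in every pool: the 6 measured, among them Slc4a1 and Klf1, summed to between 141751.5 and 184484.5 in knockout pools and between 174473.1 and 188245.1 in wild type pools. The sum of 8 progenitor genes was higher in knockout pools without overlap, 6752.7 to 8066.9 against 3874.6 to 5124.7 in wild type pools, through Kit, Myb and Cd44. Those 3 lay above wild type without overlap, beside 7.02% of all genes. The other 5 progenitor genes differed below 0 and overlapped between genotypes, and the list median was -0.09 (0.02 after median centring). Gata2, Hoxa9 and Meis1 differed by -0.03 to -0.56, Cd34 by -0.15 and Flt3 by -1.42 (SE 0.58). Cd34 and Flt3 were under the control level on all knockout arrays, while Flt3 read 362 and 258 in wild type replicates 2 and 3.

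Hepatocyte markers moved the other way. All 8 were lower in knockout pools, 6 without overlap, with sums of 111317.7 to 120369.9 in knockout pools and 127076.1 to 209577.9 in wild type pools. Endothelial markers summed to between 2452.2 and 3041.2 in knockout pools and between 2913.4 and 4774 in wild type pools, with 7 of 8 lower and 2 without overlap. Among all 18193 genes, 10570 differed below 0 and 9.85% were lower without overlap. Sums of macrophage, megakaryocyte, granulocyte and mast cell, and mesenchymal markers overlapped between genotypes. Defining markers were above the control level on some array in each list, except Pdgfrb among the mesenchymal ones. The part of these cell types in the differences of Spred1, Spred2 and Spry2 was not tested.

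**Figure D5:**
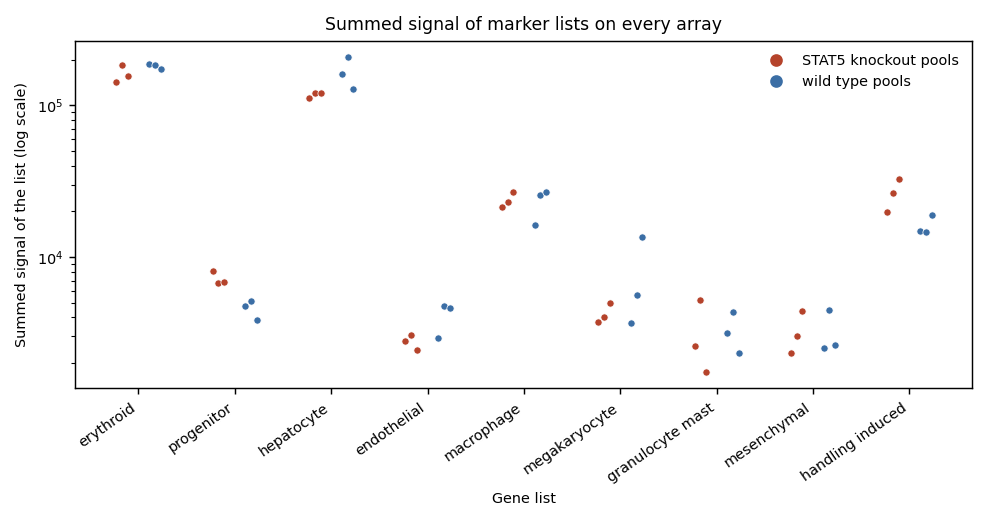
Summed signal (vertical axis, log scale) of each marker list (horizontal axis) on the 3 STAT5 knockout and the 3 wild type arrays, 1 point per array. Knockout points lie above wild type points for the progenitor and handling-induced lists and below them for hepatocytes, and overlap for the other 6 lists.

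Genes whose log2 signal followed each measurable member most closely over the 6 arrays were sought among 11168 other genes with both genotype means above the control level. For Spred2 these were Fgf13 (Pearson r = 0.998), Ppan (0.995) and Lrba (0.994), with differences of 1.98, 1.12 and 0.62. For Spred1, at its _x_at set, they were Snn (0.998), Iscu (0.993) and Cd99 (0.983), whose differences lay between 0.33 and 0.36. Spry2 was followed by Bmpr2 (0.992), Bet1l (0.991) and Synpo2l (0.9898), all with differences below 0, and Spry1 by Scgb1b27, Atxn7l2 and Actc1 (0.994, 0.988 and 0.985). Spry4 was followed by Cd14 (0.979), Tmbim1 (0.977) and Prkab2 (0.952), and Dusp6 by Itgav (0.983), Sec24d (0.981) and Grn (0.976), genes that differed by 0.16 or less between genotypes. These correlations are the highest among 11168 genes on only 6 arrays, so high values can arise by selection alone. The unknown scaling of the arrays may also enter them, and they are given as a description.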

How the data were processed

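RNA of 6 pools of Ter119-positive cells went onto 1 array each after biotin labelling, per the labels' protocols and the design text. The deposited table holds 1 linear intensity per probe set and array. RMA and Partek are named without versions in the submitters' processing notes, but the values are neither on a log2 scale nor alike in their quantiles, and the sources used here do not say how the arrays were scaled. Log2 of the deposited intensity was taken with no pseudocount, as no value was 0 or below. Array number limits the precision: 3 against 3 arrays cannot give an exact two-sided permutation p under 0.1.

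The sample titles gave groups and replicate numbers. Replicates are separate pools, labelled as biological repeats. Of 45037 probe sets left after 64 control probe sets, 34945 had 1 gene symbol in the platform annotation. Limma 3.58.1 (R 4.3.3; lmFit, eBayes, Benjamini-Hochberg, threshold 0.05) compared knockout with wild type over all probe sets, and over 18193 genes by the probe set with the highest mean. Where all arrays of the dimmer group were under the control level, its values were raised to that level and only "at least" is written. Tests were run on simulated data first. Same-numbered pools did not deviate together (r of deviations 0.02, 0.03 and 0.03), so the number was not treated as a pairing.

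The members, lists and tests were chosen with earlier results of these data known. Named were all member, Stat5a and Stat5b probe sets, and from each list up to 4 genes past a threshold, made up to 3 by the smallest p. Nras, Nf1, Fos, Junb and Egr1, and markers singled out by name, were named outside that rule. The CArG box was searched after the sequences were seen. Alternatives were the trend (also robust), quantile normalization, median centring, 32 added to the signal, leaving out the dimmest 50% of probe sets, limma's array weights, a replicate block, each array left out in turn, the mean of a gene's probe sets, and leaving out _x_at, _s_at and _a_at sets. The trend joined with a second choice was added for Spred1 and Spred2 after the data were seen.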

Additional observations from a re-analysis of the deposited data

How the results depend on the processing

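Differences at the 15 member probe sets that exceeded the control level on some array kept their direction in every alternative tried, except Spry4 1440867_at (negative with array weights, -0.02, and without 3 of the arrays) and Dusp6 (negative without knockout replicate 3). No difference that met the submitters' criterion reversed. Limma's count of probe sets past the threshold, 0, became 70 with the trend, 69 with robust estimation, 5 with 32 added to the signal and 20 without the dimmest 50%. It was 0 in each fit without 1 array. Its count of genes, 8, became 80 with the trend, 66 with robust estimation, 15 after quantile normalization, 3 after median centring, 20 without the dimmest 50%, 15 with array weights, 0 with the replicate number as a block, 3 without _x_at, _s_at and _a_at sets, and 0 in each fit without 1 array. The submitters' criterion, met by 2337 probe sets (965 higher and 1372 lower), gave 1997 to 2970 without 1 array (753 to 1184 higher and 967 to 1786 lower) and 0 after Benjamini-Hochberg adjustment of the same test. The members meeting it upward, 6, numbered 5 to 8 without 1 array and 0 after adjustment. Downward there were 0 to 1, the 1 being Spry2 1421656_at without knockout replicate 3 or wild type replicate 1. As 3 pairs of same-numbered pools did not deviate together, the replicate block is only an alternative: with it the Spred2 call with the trend held (adjusted p = 0.0487, limma). Median centring moved the median of all genes to 0.03, from which differences are then to be read. Dusp4, Dusp5 and 3 of 4 Spry4 probe sets are limited by signal at background.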
